A study of Mus musculus with 52 samples.

Results

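CTCF peaks gained or lost in female mouse embryonic fibroblasts (MEFs) that lack SmcHD1 from the germline were taken from the deposited ChIP-seq peak lists of wild-type (wt) and SmcHD1 mutant (mut) cells. A mut peak that overlapped no wt peak by 1 bp was called gained, a wt peak that overlapped no mut peak was called lost, and every other peak was called retained. By this rule 9706 of 57798 mut peaks were gained and 11880 of 60204 wt peaks were lost, out of 418635 peaks in the 8 lists of the series. The background shares, against which each group of peaks is read here, were therefore 16.8% gained and 19.7% lost.

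The study asked how SmcHD1 shapes the inactive X chromosome (Xi), using cells in which the parental X chromosomes can be told apart. The wt cells were the clone Wt2A1 and the mut cells the clone Mut5A6, which carries the germline MommeD1 null mutation of SmcHD1 (written MomeD1 in the labels). Both came from female F2 embryos of a cross between FVB mice and the castaneus subspecies and both had the castaneus X as Xi. Each genotype was thus 1 clone, the autosomes were a mosaic of strain segments that differed between the embryos, and the methods corrected RNA counts for unequal chromosome copy number. A difference between the lists can be one of SmcHD1 genotype, of clone, of strain segment or of copy number, and these cannot be told apart. CTCF was precipitated from formaldehyde-fixed cells in 3 libraries of each genotype, and their reads were merged before peaks were called on both alleles together. There is therefore 1 list a genotype, no spread between replicates and no test, and the intervals given are 95% Wilson intervals that cover counting error only. Where a count is 0, the largest share said to be allowed is instead 3 counts over the number of peaks. CTCF peaks hold no expression values, so the fibroblast label was not checked against marker genes.

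CTCF is a zinc finger protein that binds a long, GC-containing DNA motif and stops the loop-extruding cohesin complex, so that CTCF sites often mark loop anchors and domain borders. Methylation of CpG dinucleotides in a site can block binding at some sites, as at the imprinting control region of H19 and Igf2. SmcHD1 is a non-canonical SMC protein needed for stable silencing on Xi, at some imprinted genes and in the protocadherin clusters. Rad21 is the kleisin subunit of cohesin, and in mouse many CTCF motifs lie inside B2 repeats, a family of short interspersed elements.

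Example sequences came from the GRCm38 (mm10) reference and are shown for the features that set the gained and the lost peaks apart. Those of the gained group are 120-base stretches of the peaks at the starts of Erfe, Mest and Dazl, on the plus strand, with each CpG in capitals. Each is the stretch of its peak, outside annotated exons, that holds the most CpGs. It was picked for them and is richer in CpG than a typical part of the peak. They lie at chr1:91366304-91366423, chr6:30737125-30737244 and chr17:50292904-50293023 and hold 19, 9 and 20 CpGs.
Erfe: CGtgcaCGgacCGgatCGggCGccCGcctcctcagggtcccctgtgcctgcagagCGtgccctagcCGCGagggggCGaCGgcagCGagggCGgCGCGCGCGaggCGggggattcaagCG
Mest: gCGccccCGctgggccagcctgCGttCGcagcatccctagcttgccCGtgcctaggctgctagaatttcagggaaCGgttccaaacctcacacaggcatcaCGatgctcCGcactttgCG
Dazl: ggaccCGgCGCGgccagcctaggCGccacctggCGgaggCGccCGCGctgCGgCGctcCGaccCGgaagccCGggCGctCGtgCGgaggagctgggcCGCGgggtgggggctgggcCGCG

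The lost group is shown by 120 bases around the core CTCF motif, CCANNAGNNGGC, which stands in capitals, in 4 of the 12 lost peaks of highest score. The site inside D2hgdh lies at chr1:93846094-93846213 on the plus strand. Past Med13l, site A lies at chr5:118840434-118840553 on the plus strand and site B at chr5:119157339-119157458 on the minus strand. The site upstream of Tbx3 lies at chr5:119413944-119414063 on the minus strand. None of the 4 overlapped an annotated exon, and each peak held 1 core motif.
D2hgdh site: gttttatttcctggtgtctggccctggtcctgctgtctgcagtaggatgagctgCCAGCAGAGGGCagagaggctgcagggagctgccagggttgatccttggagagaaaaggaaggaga
Med13l site A: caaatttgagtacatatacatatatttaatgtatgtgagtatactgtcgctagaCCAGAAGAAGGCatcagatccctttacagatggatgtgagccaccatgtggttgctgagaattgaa
Med13l site B: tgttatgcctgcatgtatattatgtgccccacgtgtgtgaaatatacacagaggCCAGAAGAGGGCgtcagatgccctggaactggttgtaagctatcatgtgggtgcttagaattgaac
Tbx3 site: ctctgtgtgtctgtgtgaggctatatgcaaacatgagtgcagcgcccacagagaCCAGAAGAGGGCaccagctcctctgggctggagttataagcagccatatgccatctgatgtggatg
In Med13l sites A and B the core was followed by ATCAGAT or by a stretch that differed from it at 1 letter. Of these 120 bases, 114 at site A and 99 at site B were soft-masked as repeat in the reference, against 43 at the D2hgdh site and 56 at the Tbx3 site.

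Gained and lost peaks were weak peaks of their lists. Ranked by the deposited score, the median gained peak stood at percentile 14.5 of the mut list and the median lost peak at percentile 15.9 of the wt list, against medians of 58.0 and 59.6 for retained peaks. In the lowest 10 percentile points, 60.2% of mut peaks were gained and 65.3% of wt peaks were lost. These shares fell at every step to 8.68% and 11.9% between percentiles 40 and 50, and to 3 gained and 2 lost peaks in the highest 10 points. Only 338 gained and 379 lost peaks stood in the upper part of their list, from percentile 50 up. Most were not displaced copies of a peak in the other list: 14.5% of gained and 17.7% of lost peaks had one within 500 bp, while 37.4% and 36.3% had none within 10 kb. With both lists cut to 57798 peaks the gained share was 17.4% and the lost share 17.6%, close to each other, as lists of equal length require.

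**Figure D1:**
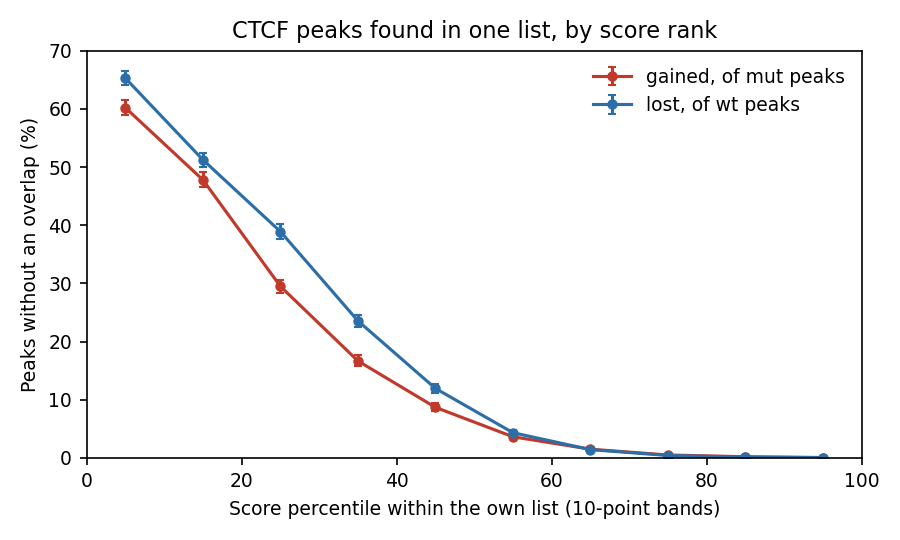
Share of CTCF peaks without an overlap in the other list (vertical axis, percent) in 10-point bands of the score percentile within their own list (horizontal axis), gained in red and lost in blue. Points are shares and bars their 95% Wilson intervals. Both curves fall from above 60% in the lowest band to almost 0 in the highest.

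Gained peaks were found at promoters more often, and lost peaks less often, than the peaks around them. A promoter peak is one whose midpoint lay within 1 kb of an annotated transcript start. Promoters held 28.9% of gained peaks (95% interval 28.0 to 29.8, 2802 of 9706) and 18.3% of retained mut peaks. They held 10.5% of lost peaks (10.0 to 11.1, 1252 of 11880) and 18.6% of retained wt peaks. The remaining gained peaks lay in introns (37.1%), between genes (29.9%) and in exons (4.18%), and the remaining lost peaks in introns (44.3%), between genes (40.8%) and in exons (4.37%).

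The contrast was present at every level of rank. Among peaks from percentile 60 up, promoters held 41.4% of the 128 gained peaks (33.2 to 50.1) and 19.7% of retained mut peaks, but 9.32% of the 118 lost peaks (5.29 to 15.9) and 17.6% of retained wt peaks. Within percentiles 0 to 20 the shares were 30.9% for gained peaks against 19.3%, and 11.8% for lost peaks against 29.4%. Chromosome by chromosome, the promoter share of gained peaks exceeded that of retained mut peaks on 20 of 20 chromosomes, and that of lost peaks was below that of retained wt peaks on 20 of 20, with Y not counted. Over the 19 autosomes the promoter share was 29.5% ± 3.62 (SD) among gained and 10.7% ± 1.81 among lost peaks.

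**Figure D2:**
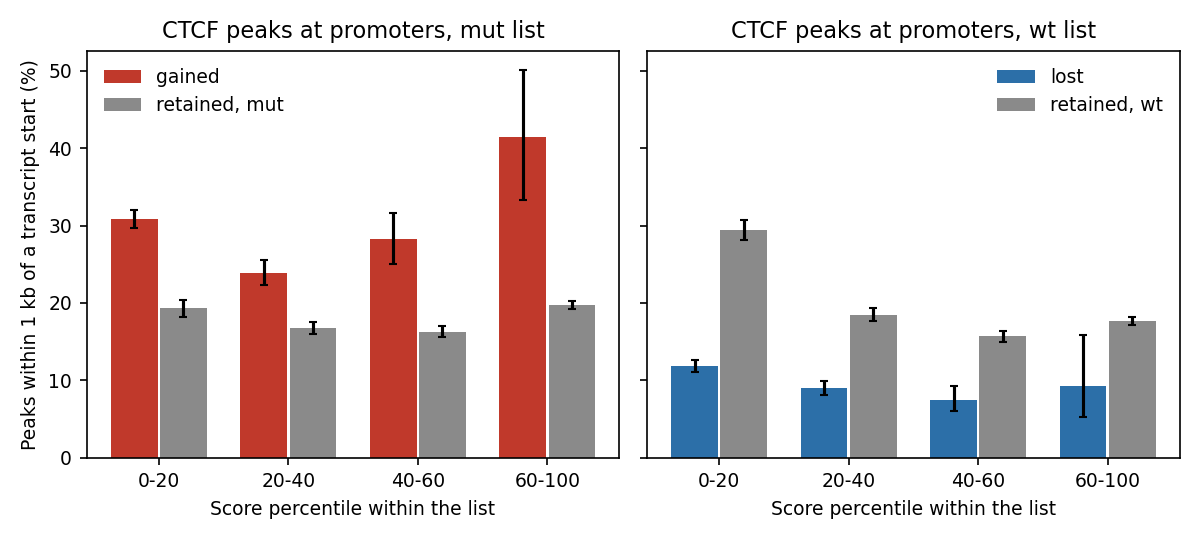
Share of CTCF peaks within 1 kb of a transcript start (vertical axis, percent) in 4 bands of score percentile, for the mut list (left, gained in red) and the wt list (right, lost in blue), with retained peaks of the same list in grey. Error bars are 95% Wilson intervals. Gained peaks stand above and lost peaks below the retained peaks in all 4 bands.

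The gained promoters were more often of the CpG-rich kind. A peak was called CpG-rich when the 300 bases around its midpoint had a GC content of at least 50% and a ratio of observed to expected CpG of at least 0.6. This held for 55.3% of gained promoter peaks (53.5 to 57.1), 36.1% of retained mut promoter peaks and 14.8% of lost promoter peaks (12.9 to 16.8). The median gained promoter peak had 19 CpGs in its 300 bases, the median retained one 9 and the median lost one 4. Over all places, CpG-rich peaks made up 17.4% of gained and 7.80% of retained mut peaks. The Dazl peak shown above, with a ratio of 0.587, fell short of the CpG-rich cut. Away from promoters CpG-rich peaks were rare in every group, at 1.98% of gained and 0.583% of lost peaks.

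The core motif was less frequent in gained peaks. It was searched on both strands of the whole peak and was found in 27.3% of gained peaks (26.5 to 28.2), 46.4% of retained mut peaks, 39.1% of lost peaks (38.2 to 40.0) and 46.2% of retained wt peaks. Stretches of the same length 5 kb away held it in 2.87% for gained, 7.05% for retained mut, 2.92% for lost and 7.20% for retained wt peaks. Gained peaks were below retained mut peaks both at promoters, with 10.8% (9.75 to 12.1) against 31.7%, and at distal sites, with 34.0% (32.9 to 35.2) against 49.7%. Among CpG-rich gained promoters it was 4.52%, against 3.42% in the stretches 5 kb away. Retained peaks are wider, and in 300 bases around the midpoint the core was found in 32.6% of retained mut and 32.0% of retained wt peaks. This was below the 37.9% of lost peaks and above the 26.6% of gained peaks. The order of lost and retained wt peaks also changed with rank in the whole-peak search. It was 32.7% against 29.6% in percentiles 0 to 20, 49.9% against 46.7% in 20 to 40 and 43.8% against 46.9% in 40 to 60. The order of lost and retained peaks thus depends on width and rank.

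Lost peaks were rich in repeats and in the extended motif seen at the Med13l sites. At least 50% of the central 300 bases was soft-masked as repeat in 43.0% of lost peaks (42.1 to 43.9), 22.9% of retained wt peaks, 26.6% of gained peaks and 23.4% of retained mut peaks. These shares depend on rank. Lost and retained wt peaks had 39.3% and 28.2% in percentiles 0 to 20, and 50.9% and 38.7% in 20 to 40. Gained peaks were below retained mut peaks there, with 28.9% against 40.3% and 26.3% against 41.6%. The core motif followed directly by ATCAGAT, with at most 1 of these 7 letters different and either strand read, was found in 25.1% of lost peaks (24.4 to 25.9), 14.4% of retained wt peaks, 15.0% of gained and 14.3% of retained mut peaks. Stretches of equal length 5 kb away held it in 1.14% for lost and 1.10% for gained peaks. This extension was chosen after the sequences of lost peaks had been seen, so it describes them and is no independent finding. Of the 9945 wt peaks that held the extended motif 78.7% were masked as repeat, against 24.7% of the 17023 peaks with the core alone.

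Peaks with the extended motif were lost more often than other motif peaks of the same rank. Over the whole wt list 30.02% of them were lost (29.1 to 30.9), against 9.75% of peaks with the core alone (9.31 to 10.2). Between percentiles 0 and 20 the lost shares were 64.8% and 53.1%, between 20 and 40 they were 38.02% and 26.6%, and between 40 and 60 they were 9.81% and 6.26%. From percentile 60 up 21 of 2256 and 24 of 9574 were lost. With wt peaks of every rank counted, the lost share of extended-motif peaks was the higher of the pair on 20 of 20 chromosomes. This count was not made within bands of rank, so it does not bear on peaks of the same rank. Over the whole mut list 17.5% of peaks with the extended motif were gained, against 7.21% of those with the core alone. Within bands of rank, however, the extended motif did not mark a higher gained share in any band. The gained shares of mut peaks with the extended motif and with the core alone were 44.1% and 45.5% between percentiles 0 and 20 and 14.5% and 15.8% between 20 and 40, with intervals that overlap. Between 40 and 60 they were 2.02% (1.44 to 2.83) and 3.48% (2.91 to 4.15), and from percentile 60 up 0 of 1751 and 22 of 9181 peaks were gained.

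Retained peaks shifted in rank in the same directions. For 44267 retained peaks that paired 1 to 1 between the lists, the percentile in wt was subtracted from that in mut. These peaks are neither gained nor lost. The ranked score appears to be the value that also decides whether a peak is called, so the shifts are no separate support for the calls. The median over all pairs was -1.10 points, and each class is read against it. CpG-rich promoter peaks had a median difference of 5.80 points toward mut (quartiles -0.16 and 14.3, 2982 pairs), and their median was above 0 on 20 of 20 chromosomes, from 1.77 to 12.2. Promoter peaks that were not CpG-rich had a median of 0.01 points (5110 pairs). Distal peaks in repeats had a median of -5.10 points (9705 pairs), above 0 on 1 of 20 chromosomes, and distal peaks outside repeats -0.88 points (26470 pairs). Pairs with the extended motif had a median of -5.30 points (6428 pairs) and those with the core alone -1.27 points (14113 pairs). The medians of distal peaks outside repeats and of peaks with the core alone were thus close to that of all pairs. Ranks are relative within a list, so a rise of some classes forces a fall of others, and no class is shown to be constant.

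**Figure D3:**
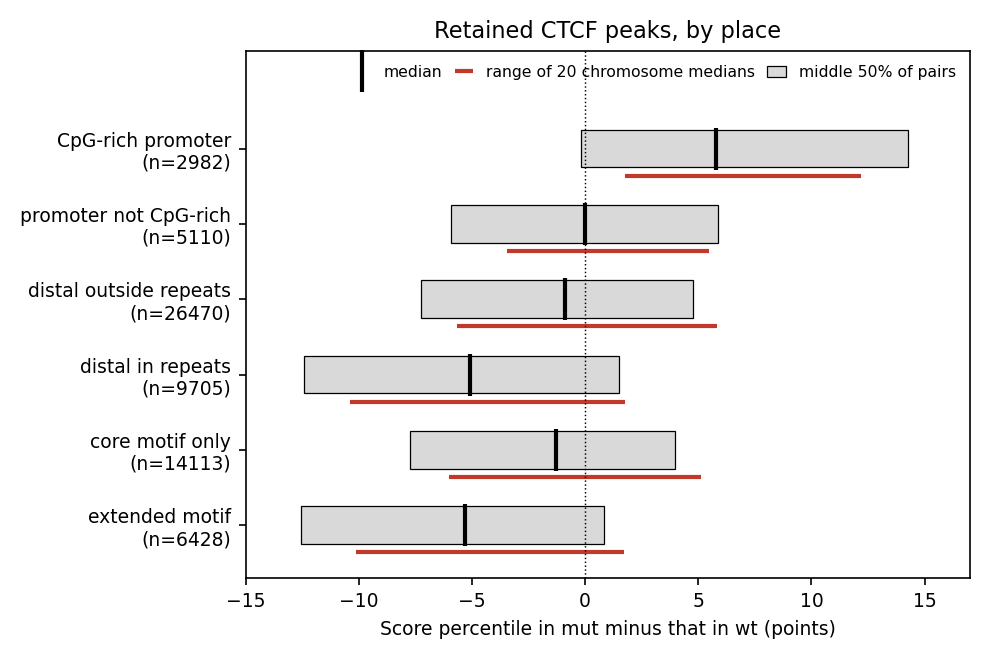
Score percentile in mut minus that in wt (horizontal axis, percentile points) for CTCF peaks retained in both lists and paired 1 to 1, by place and motif (vertical axis). Grey boxes hold the middle 50% of pairs, black ticks are medians and red lines the range of the medians of 20 chromosomes. Only the red line of CpG-rich promoters stays right of 0.

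Rad21, measured in separate libraries from doubly fixed cells of the same clones (2 libraries a genotype, merged), differed at many of the same places. A Rad21 peak of mut overlapped 43.1% of gained peaks (42.1 to 44.1), while a Rad21 peak of wt overlapped 29.2%. At lost peaks it was the reverse, with 33.9% in wt (33.0 to 34.7) and 15.0% in mut. Retained mut peaks had Rad21 in 73.7% in mut and 76.0% in wt, but they ranked higher. At like rank, Rad21 in mut overlapped 38.4% of gained and 31.1% of retained mut peaks (percentiles 0 to 20). From 20 to 40 it was 44.2% and 43.5%, and from 40 to 60 it was 70.3% and 70.5%. Rad21 in wt overlapped 22.7% of lost and 39.5% of retained wt peaks from 0 to 20, and 42.9% and 45.4% from 20 to 40. From 40 to 60 the order was the other way, with 73.8% of lost (70.9 to 76.4) and 71.0% of retained wt peaks. The split was sharper among high-ranking peaks: from percentile 60 up, 99 of 128 gained peaks (77.3%, 69.4 to 83.7) had a Rad21 peak in mut and none in wt, and 81 of 118 lost peaks (68.6%, 59.8 to 76.3) had a Rad21 peak in wt and none in mut. The reverse pattern was found at 0 of 128 gained peaks, which allows a share of up to 2.34%, and at 0 of 118 lost peaks, which allows up to 2.54%. In percentiles 0 to 20, by contrast, 57.6% of gained and 73.2% of lost peaks had Rad21 in neither genotype. For retained mut and retained wt peaks of that band it was 53.3% and 48.7%.

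Promoters differed from distal sites in this respect. Gained promoter peaks had Rad21 in both genotypes in 55.4% and in mut alone in 19.6%, whereas gained distal peaks had it in both in 13.4% and in mut alone in 16.8%. SmcHD1 itself was seldom found at either group in wt, with a peak at 1.79% of gained, 1.14% of lost and 2.37% of retained wt peaks. The SmcHD1 lists held 6993 peaks in wt and 244 in mut, which checks the labels of the SmcHD1 libraries and not those of the CTCF libraries.

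**Figure D4:**
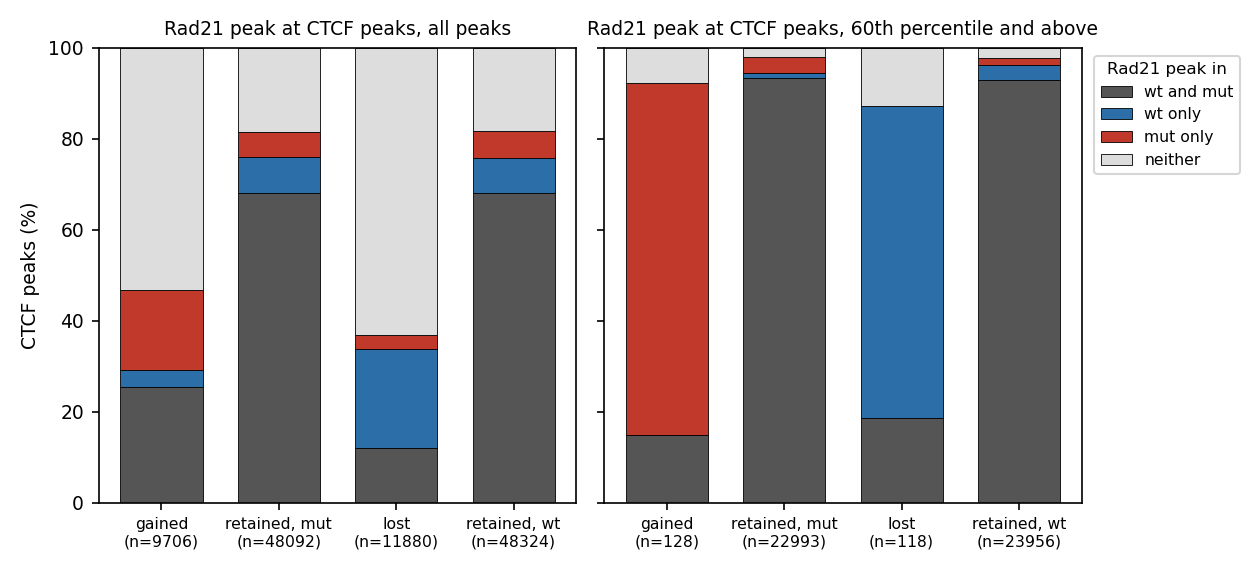
Share of CTCF peaks (vertical axis, percent) that overlap a Rad21 peak in wt and mut, in wt alone, in mut alone or in neither, for gained, retained and lost CTCF peaks, over all peaks (left) and from percentile 60 up (right). In the right panel mut alone makes up 77.3% of gained and wt alone 68.6% of lost peaks.

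The 12 gained peaks of highest score stood between percentiles 82.4 and 98.4 of the mut list. Of these, 7 were promoter peaks of protein-coding genes, 11 had a Rad21 peak in mut and 2 in wt, and 1 held the core motif. The highest, at chr13:9011731-9012165 and 15.9 kb from Gtpbp4, a nucleolar GTPase, had a score of 9849 and was the exception with no Rad21 peak in either genotype. Next came the peak at the start of Eogt, which encodes a glycosyltransferase of the endoplasmic reticulum, at chr6:97148516-97149346. It had a score of 5518 (percentile 91.4), 30 CpGs and Rad21 in mut only. The nearest wt peak lay 0.772 kb away. The peak 893 bp from the start of Nkx6-1, a homeobox factor of pancreas and neural tube, reached a score of 5236 over 1928 bp and also overlapped an SmcHD1 peak of wt.

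Other promoters among the 12 were those of Nhlrc1 (the ubiquitin ligase malin), Bcl2 (an inhibitor of apoptosis), Erfe (the iron-regulating hormone erythroferrone), Pcdha5 (a clustered protocadherin) and Amdhd1 (an enzyme of histidine breakdown), with scores of 4661, 4336, 3865, 3831 and 3638. Nhlrc1 and Bcl2 had a Rad21 peak in wt as well, and Amdhd1 alone held the core motif. The other 4 lay 12.6 kb from BC048507, in an exon of Fbrsl1, 36.8 kb from Dennd3, a regulator of vesicle traffic, and 2.08 kb from Snx10, a sorting nexin. Their scores were 4678, 3815, 3600 and 3600.

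By rank among promoters alone, Mest, Dazl and Gabbr1 followed. Mest is an imprinted gene expressed from the paternal allele, and its peak at chr6:30736935-30737440 had a score of 3519 (percentile 81.9) with Rad21 in mut only. No wt CTCF peak lay within 159 kb. Dazl, an RNA-binding protein of germ cells, had a peak of score 3235 with the core motif at chr17:50292511-50293765, 246 bp from its start. Gabbr1, a subunit of the GABA-B receptor, had one of 3195. Both had Rad21 in mut only.

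The 12 lost peaks of highest score stood between percentiles 77.8 and 99.2 of the wt list and were the opposite kind of place. None was a promoter peak, 6 held the core motif, and the central 300 bases of the median peak held 1 CpG, against 23.5 for the 12 gained peaks. All 12 had a Rad21 peak in wt and 1 had one in mut. All 12 were also in the CTCF list of the somKO cells, a longer list of 69736 peaks from another parent line. That list held 118 of 118 lost and 23956 of 23956 retained wt peaks from percentile 60 up, so a somKO peak was present at every wt peak of this rank. It held 5 of the 12 gained peaks, and 53 of the 128 from percentile 60 up. The highest lay at chr1:93845652-93846394, in an intron of D2hgdh, the enzyme that oxidises D-2-hydroxyglutarate. It had a score of 8514 and was the exception that kept Rad21 in mut.

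Of these 12 lost peaks, 6 lay on chromosome 5 between 118429426 and 119414228, around Med13l, a Mediator subunit, and on toward Tbx3, a T-box factor of limb and mammary development. Their scores were 4931, 3195, 2852, 2603, 2485 and 2245. From the start of Med13l to the end of Tbx3 (chr5:118560679-119684724) 42 of 68 wt CTCF peaks were lost (61.8%) and 0 of 27 mut peaks were gained, which allows a share of up to 11.1%. On the whole of chromosome 5 the shares were 24.8% lost and 14.7% gained. The stretch was chosen for its lost peaks of high score, so its lost share is a description. Rad21 overlapped 26 of these 42 lost peaks in wt and 3 in mut, and 37 of the 42 were in the somKO list, which held 70.1% of all lost peaks.

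Of the other 5, a peak 4.27 kb from Emx2, a homeobox factor of cortex and urogenital tract, had a score of 2892 and one in Cacna1s, the calcium channel of skeletal muscle, 2430. Peaks 405 kb from Dpp10, 3.56 kb from Nipsnap3a and 313 kb from G6pd2 had scores of 2862, 2168 and 2134.

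The 10 lost promoter peaks of protein-coding genes with the highest score stood between percentiles 53.7 and 71.8, and the 10 gained ones between 79.7 and 91.4. Over all promoter peaks, those of other transcripts included, the median percentiles were 13.2 for the 1252 lost and 12.4 for the 2802 gained. The 10 lost peaks belonged to Sssca1 (score 1626), Coprs, a partner of the arginine methyltransferase Prmt5 (1068), Smc3, a core subunit of cohesin (1023), Cdh12, a cadherin (981), Zic1, a factor of cerebellar development (980), Nuggc (940), Fam181b (859), Nnt, the mitochondrial transhydrogenase (846), Pcdhga11 (822) and Anapc4, a subunit of the anaphase-promoting complex (663). Rad21 was present at 9 of the 10 in wt and at 2 in mut. At Zic1, Fam181b and Pcdhga11 the central 300 bases held 27, 40 and 21 CpGs, while the other 7 had 2 to 5.

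The genes with the most gained or lost peaks in their body are given as a description, since they were chosen for these counts and long genes are favoured. Fry, whose product binds microtubules, held 12 gained and 2 lost peaks, with 25 peaks in wt and 33 in mut. Adgrb1, an adhesion receptor, went from 8 to 18 peaks with 10 gained and 0 lost. Rora, a nuclear receptor, had 10 gained and 2 lost, and Foxp1, a forkhead factor, 9 and 2. In the other direction Col26a1, a collagen, lost 15 of 25 peaks, Gabbr2, the partner of Gabbr1 in the GABA-B receptor, 14 of 19, Bri3 12 of 22 and Epb41l4b 9 of 14. Gabbr2 lies in the window chr4:46000001-47000000, where 40 of 76 wt peaks were lost. Gained peaks were 0 in Col26a1, Gabbr2 and Epb41l4b and 1 in Bri3. The annotation of Fgfr2 spans other genes, and with 21 lost and 10 gained among 111 wt and 100 mut peaks it stood near the background.

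Among gene lists the Hox genes had the highest gained share, through the Hoxa and Hoxb clusters. Peaks were counted within 10 kb of the genes of a list, where over all protein-coding genes 17.5% of mut peaks were gained and 18.8% of wt peaks lost. Around 39 Hox genes, which pattern the body axis, 19 of 55 mut peaks were gained (34.5%, 23.4 to 47.7) and 3 of 38 wt peaks were lost (7.89%, 2.72 to 20.8). The gained peaks numbered 8 of 19 at Hoxa, 9 of 20 at Hoxb, 2 of 6 at Hoxc and 0 of 10 at Hoxd, and the lost peaks 0 of 10, 2 of 13, 0 of 4 and 1 of 11. Hoxa3 went from 6 to 12 peaks with 5 gained, and Hoxb6 and Hoxb5 each from 6 to 7 with 3 gained and 2 lost. A gained peak at the promoter was found for 10 of the 39 genes and a lost one for 0, against 11.3% and 4.07% of all protein-coding genes. Neighbouring Hox genes share peaks, so these counts are not independent of each other.

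Imprinted genes and clustered protocadherins are groups in which SmcHD1 is known to act at some loci, not at every gene listed. Their gained shares were 24.1% (20 of 83, 16.2 to 34.3) and 21.7% (13 of 60, 13.1 to 33.6), with intervals that include the background. Of the 33 imprinted genes, 8 had a gained promoter peak: Mest, Usp29, Peg3, Zim1, Grb10, Sgce, Ascl2 and Gnas. A lost promoter peak was found for 1, Magel2. Over all protein-coding genes the shares were 11.3% and 4.07%. H19 lost 3 of 4 wt peaks with 0 gained. Mest went from 0 to 3 peaks. Airn, the noncoding RNA of the Igf2r domain, had 2 lost and 2 gained, and Usp29 1 and 2. In the lost direction imprinted genes had 12 of 73 peaks and protocadherins 5 of 54 (9.26%, 4.02 to 19.9). Pcdhga1, Pcdhga2 and Pcdhga3 had 5, 5 and 4 lost and 3 gained peaks each, largely the same peaks counted within overlapping windows.

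Fibroblast matrix genes had 24 of 97 mut peaks gained (24.7%, 17.2 to 34.2) and 13 of 87 wt peaks lost (14.9%). Of its 28 genes 13 had a gained and 9 a lost peak, a count that was not made over all genes. A gained promoter peak was found for 3 and a lost one for 2, against 11.3% and 4.07% of all protein-coding genes. Fn1, fibronectin, had its 1 wt peak lost and 4 gained, Timp3, a protease inhibitor, went from 4 to 8 peaks and Col5a1, a collagen, from 10 to 12. Col1a1, the main fibrillar collagen, and Pdgfra, a growth factor receptor, named after their values were seen, went from 7 to 4 and from 6 to 4 with 0 gained. Growth response and cell cycle genes had 15 of 76 gained (19.7%) and 5 of 66 lost (7.58%, 3.28 to 16.5), with 2 gained peaks each at Fosl1, Fos and Mdm2. Markers of other lineages had 10 of 54 gained and 12 of 55 lost, among them 4 of 8 at Runx1, a blood cell factor, 2 of 3 at Krt8, a keratin, and 2 gained at Pax6, an eye and brain factor, where wt had 0. Genes for chromatin architecture had 7 of 54 gained and 13 of 59 lost. Lbr had 2 gained and 1 lost peak, Smc3 2 lost and Pds5a 1 of each. For these lists the intervals of the gained share include the background of 17.5%, and those of the lost share include 18.8% except for growth response and cell cycle genes, whose interval lies below it.

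A list of 24 germ cell genes, drawn up after the Dazl peak had been seen, had 8 of 52 peaks gained and 18 of 62 lost (29.0%, 19.2 to 41.3). A gained promoter peak was found for 2 of the 24 genes and a lost one for 0, against 11.3% and 4.07% of all protein-coding genes. The 2 were Dazl and Mei4, a gene of meiotic recombination, and Mei4 also lost 2 of its 3 wt peaks. Tex14 and Fkbp6 lost 5 of 20 and 2 of 6 peaks, with 1 gained each. At the X inactivation centre and genes that escape it the gained share was 2 of 52 (3.85%, 1.06 to 12.98) and the lost share 19 of 70 (27.1%, 18.1 to 38.5), with 4 peaks lost and 0 gained at each of Xist, Tsix and Kdm5c. The 12 genes of this list all lie on the X, where 9.23% of mut peaks were gained and 23.7% of wt peaks lost. Both intervals include these shares of the X. Xist and Tsix overlap, so peaks counted for both are partly the same.

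The shares varied widely between chromosomes. Over the 19 autosomes the lost share was 19.4% ± 4.41 (SD), from 9.04% on chromosome 10 to 26.0% on chromosome 19, and the gained share 16.8% ± 3.93, from 10.95% on chromosome 19 to 25.1% on chromosome 10. Chromosome 14 combined a high lost share of 25.6% with a gained share of 17.9%. The X, at 23.7% lost and 9.23% gained, had the lowest gained share of the 20 but a lost share within the range of the autosomes.

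**Figure D5:**
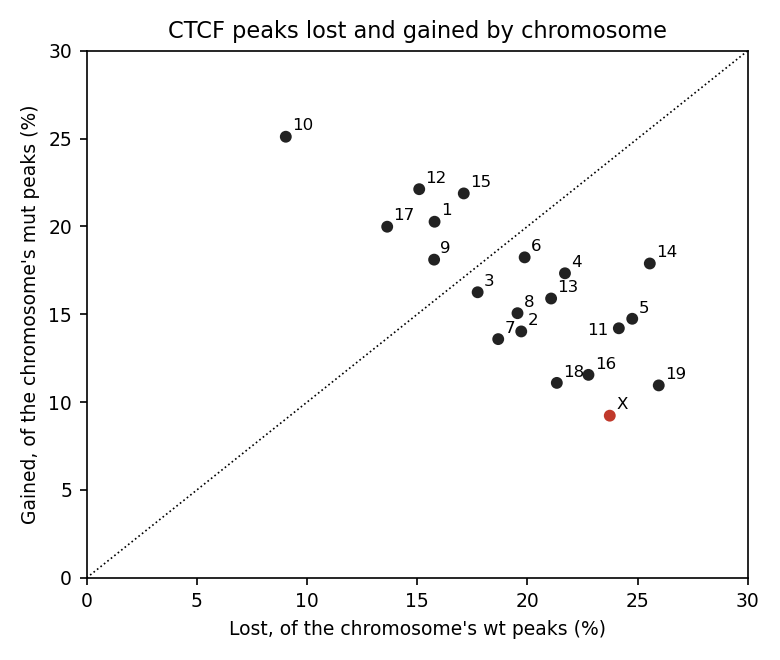
Gained share of the mut CTCF peaks of each chromosome (vertical axis, percent) against the lost share of its wt peaks (horizontal axis, percent), 1 point for each of 19 autosomes (black) and the X (red), with equal shares on the dotted line. Chromosome 10 stands at 9.04% lost and 25.1% gained, chromosome 19 at 26.0% and 10.95%.

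A few blocks had lost most of their peaks. Of 1828 windows of 1 Mb with at least 10 wt peaks, 32 had lost 50% or more, where the median was 18.2%, and 17 of the 32 lay on chromosome 14. These 32 windows held 421 lost peaks, or 3.54% of all lost peaks, and the rest lay outside them. From 64 Mb to its end chromosome 14 had lost 395 of 723 wt peaks (54.6%) and gained 6 of 341 mut peaks (1.76%), while before 64 Mb it had lost 11.4% and gained 21.3%. The cut at 64 Mb was placed with these losses known, so the contrast is a description. Of the other windows, 5 lay on chromosome 4, 3 on the X and 2 each on chromosomes 5 and 13. Of 1768 windows with at least 10 mut peaks, 6 had gained 50% or more. The window chr10:120000001-121000000 had gained 26 of 64 mut peaks and lost 0 of 39 wt peaks. Whether these blocks follow strain segments or copy number was not tested.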

How the data were processed

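CTCF ChIP-seq libraries (3 wt, 3 mut) were mapped by the authors with bowtie2 to an N-masked mm10 index, replicates were merged, and narrow peaks were called with MACS2 at q < 0.05. Versions and the use of input in calling are not given in the sources used here. The deposited score in column 5 appears to be 10 times the −log10 q-value. It was used only for ranks and filters, never as a level to compare between lists. Sequencing depth is unknown, so a missing peak can be one below the calling threshold.

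Overlaps, percentiles, shares and intervals were computed with Python 3 (numpy, pandas, scipy, pysam). Overlap and motif functions were tested on simulated data. Genes came from GENCODE M21 and sequence from RefSeq GRCm38. Members, gene lists and alternatives were chosen with earlier results of these data known. Named by rule were the 12 gained and 12 lost peaks and the 10 gained and 10 lost promoter peaks (protein-coding genes) of highest score, the 5 genes with most gained or lost peaks in their body, and up to 3 members a gene list. The germ cell list, the extended motif and imprinted genes named beyond this rule were chosen after their values were seen. The Rad21 somKO list was not used.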

Additional observations from a re-analysis of the deposited data

How the results depend on the processing

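Leaving out a replicate was not possible, because the replicates had been merged before peaks were called. No paired analysis was possible because each genotype has 1 merged list and no test was run. Under every alternative run, the promoter share of gained peaks stayed above that of retained mut peaks, and the promoter share of lost peaks below that of retained wt peaks. Weak peaks set most of the counts: they lie near a calling threshold, and how far unequal depth moved them was not tested.

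With both lists cut to the shorter length, gained and lost shares were 17.4% and 17.6%, the median percentile of lost peaks 15.8, their Rad21 share in wt 36.03% and their core motif share 44.4%. When 50% reciprocal overlap was required, gained and lost shares were 28.7% and 31.6%, median percentiles 21.6 and 21.9, promoter shares 25.2% and 14.6%, Rad21 shares 53.0% and 46.7%, and the motif share of gained peaks 32.2%. With peaks within 500 bp also shared, gained and lost shares were 14.4% and 16.2%, median percentiles 16.1 and 19.8, the promoter share of lost peaks 9.98%, their Rad21 share 34.8%, and motif shares 30.2% and 45.4%. At scores of at least 50 in both lists, the values were 15.2% and 16.4%, percentiles 13.1 and 14.9, a promoter share of gained peaks of 30.1%, Rad21 shares 45.0% and 37.8%, and motif shares 30.9% and 48.2%. Without chromosomes 3, 4, 14 and X the lost share was 19.3%, the median percentile of lost peaks 15.6, and Rad21 shares 44.2% and 32.4%.

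Promoter shares of gained and lost peaks were 21.7% and 5.61% within 500 bp of a start, 37.1% and 18.9% within 2 kb, and 24.99% and 7.49% with protein-coding starts only. Rad21 peaks within 500 bp raised the Rad21 shares to 49.3% and 41.8%. A mismatch in the core motif raised its shares to 64.1% and 69.0%. Added after the data were seen, a search of 300 bp gave 37.9% of lost peaks with the core motif, and peaks from the 40th percentile up had promoter shares of 30.2% and 7.71%. Against retained peaks, the motif share of lost peaks was higher with scores of at least 50, with peaks within 500 bp shared and in the 300 bp search, and lower under the other settings, while the motif share of gained peaks was lower than that of retained peaks under all of them.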
